A study of Mus musculus with 22 samples.

Results

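The mitochondrial ribosomal protein genes were followed in microglia, the resident macrophages of the brain. They were taken as every row of the deposited count table with a symbol of Mrpl or Mrps, a number and at most 1 further letter, without rows named as pseudogenes. This gave 78 genes of 54532 in the table, 49 with an Mrpl and 29 with an Mrps name. The rule uses the symbols alone.

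Mitochondria keep a ribosome of their own, the mitoribosome, which translates the few messages of mitochondrial DNA into core subunits of the respiratory chain and of ATP synthase. All of its proteins are encoded in the nucleus, made in the cytosol and imported, and they assemble on ribosomal RNAs transcribed inside the mitochondrion. Many descend from bacterial ribosomal proteins and others are found in mitochondria alone. In macrophages, inflammatory activation is known to shift energy metabolism between glycolysis and the respiratory chain that these ribosomes help to build.

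The microglia were sorted as live CD45mid, CD11b+ and CD11a- cells from male C57BL/6J mice, and the count table holds 22 libraries of their polyadenylated RNA in 6 groups. The GW groups, a model of Gulf War Illness, were injected on 10 days, from an age of 10 weeks, with the cholinesterase blocker pyridostigmine bromide at 0.7 mg/kg and the insecticide permethrin at 200 mg/kg, and the Ctrl groups with vehicle. All mice were then aged to 17.5 months. The GW-CBD groups then had cannabidiol (CBD), a compound of the cannabis plant, on each of 28 days and every 2 days over 2 further weeks, in doses of 30 mg/kg, while all other groups had its vehicle. Lipopolysaccharide (LPS), a molecule of the bacterial surface that activates innate immunity, was injected once at 0.33 mg/kg, or PBS in its place, and brains were collected 24 hours later. The groups are GW-CBD-LPS (4 libraries), GW-CBD-PBS (3), GW-LPS (3), GW-PBS (4), Ctrl-LPS (4) and Ctrl-PBS (4). Libraries are called by the number in their library name, which runs from 2 to 4 in GW-CBD-PBS and GW-LPS. Control mice given CBD were not analysed here, so a CBD effect is seen in exposed mice only. Whether a library is 1 mouse is not stated in the labels, so the p-values measure the spread between libraries.

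Library totals ran from 28676930 to 40458326 counts, and the 78 genes held between 0.192% and 0.329% of them. All 7 microglial markers were present, with a summed level of 19714 to 28957 CPM (counts scaled to a common library size) in Ctrl-LPS and of at least 27166 CPM in every other library. The summed level of 12 neutrophil markers stood apart in 3 libraries, at 26819 CPM in Ctrl-PBS 3, 2685 CPM in Ctrl-LPS 1 and 1670 CPM in GW-PBS 1, against 1.59 to 334 CPM in the other 19. For LPS in control mice the called genes and the median are also given without these 3 libraries, as is the median of 1 interaction. Other results, including those of the gene lists around the mitoribosome, are not given without all 3. In sorted cell pools, fewer cells of a type and less RNA per cell cannot be told apart.

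By their place in the mitoribosome 51 of the genes encode large-subunit proteins, including Mrps30 and Mrps18a in spite of their names, and 26 encode small-subunit proteins. Mrps36, also called Kgd4, belongs to the 2-oxoglutarate dehydrogenase complex and is counted with neither subunit. Of the 78 proteins 48 have bacterial relatives and 30 are specific to mitochondria. A single gene, Mrpl53, had 0 counts in all 22 libraries and was not tested. Of its 790 exonic bases 695 are also annotated to Gm42688 on the same strand, which had 2177 counts over all libraries. The rule by which shared reads were assigned is not known here, and the 0 is no measure of Mrpl53 expression. The other 77 genes passed the filter on low counts.

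Promoter sequence is shown for the 2 genes that responded most to LPS in control mice (Mrps18b and Mrpl12), for 3 further responding genes with motifs near the start site, and for Mrpl9, which holds a motif of another kind. Each line runs 5′ to 3′ on the gene's own strand, from 100 bases before to 30 bases after the transcription start site in the RefSeq table of build GRCm38.p6. Capitals mark matches to motifs of factors known to regulate nuclear genes for mitochondrial proteins: NRF1 (GCGCATGCG), ETS factors such as GABP (CCGGAAG) and YY1 (AAGATGGCG), each searched on both strands. The intervals are chr17:35916411-35916540 (minus strand) for Mrps18b, chr11:120484537-120484666 (plus) for Mrpl12, chr13:99344686-99344815 (plus) for Mrps27, chr14:54426809-54426938 (plus) for Mrpl52, chr11:115403652-115403781 (plus) for Mrpl58 and chr3:94443236-94443365 (plus) for Mrpl9.
Mrps18b: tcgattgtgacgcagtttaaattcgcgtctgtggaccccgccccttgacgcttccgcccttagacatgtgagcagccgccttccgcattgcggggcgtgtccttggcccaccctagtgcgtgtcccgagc
Mrpl12: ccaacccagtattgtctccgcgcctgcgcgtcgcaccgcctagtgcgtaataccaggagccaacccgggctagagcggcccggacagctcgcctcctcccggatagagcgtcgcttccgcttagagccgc
Mrps27: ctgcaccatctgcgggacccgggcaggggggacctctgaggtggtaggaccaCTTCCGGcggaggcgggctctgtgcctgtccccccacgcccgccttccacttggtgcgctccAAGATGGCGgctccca
Mrpl52: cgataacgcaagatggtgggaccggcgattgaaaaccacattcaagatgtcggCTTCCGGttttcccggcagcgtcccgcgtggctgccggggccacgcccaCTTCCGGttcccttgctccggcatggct
Mrpl58: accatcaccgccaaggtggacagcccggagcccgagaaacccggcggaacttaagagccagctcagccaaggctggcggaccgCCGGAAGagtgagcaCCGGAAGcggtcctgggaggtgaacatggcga
Mrpl9: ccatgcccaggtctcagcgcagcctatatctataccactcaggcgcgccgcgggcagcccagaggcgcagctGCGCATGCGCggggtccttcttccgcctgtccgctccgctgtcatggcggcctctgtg

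The printed stretch of Mrpl12 holds none of these 3 motifs, and neither does that of Mrps18b, whose longer window has an NRF1 match upstream and an ETS match downstream of the stretch. Mrps27 holds an ETS and a YY1 match, and Mrpl52 and Mrpl58 each hold 2 ETS matches. In Mrpl9 the NRF1 motif is close to a palindrome, so its matches on the 2 strands overlap. Over the full windows of 250 bases before to 50 after the start site, found for 69 of the 78 genes, the ETS motif occurred in 26 (37.7%), against 9.93% of 27025 genes with a window. The NRF1 motif occurred in 7 (10.1%) against 1.95%, and the YY1 motif in 8 (11.6%) against 1.64%. Another pair of motifs had lower shares than all genes: the E-box (CACGTG) occurred in 7.25% against 8.09% and the TATA box (TATAAA) in 7.25% against 15.7%. At least 1 of the NRF1, ETS and YY1 motifs was found in 36 of 69 genes (52.2%), against 12.7% of all genes. These are matches of letters and not measured binding.

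Many of the genes also share their promoter region with a neighbour. A gene on the opposite strand starts within 1 kb, head to head, at 19 of 78 (24.4%), against 10.6% of the 13454 protein-coding genes tested. Mrps18b lies 45 bp from the start of Ppp1r10, Mrps27 81 bp from Ptcd2, Mrps12 172 bp from Sars2, which encodes the mitochondrial seryl-tRNA synthetase, and Mrpl51 100 bp from Ncapd2.

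Levels of single genes are CPM scaled with TMM factors. Divided by exon length, the genes had a median of 11.7 CPM per kb over all libraries. The lowest were Mrps35 (2.18 CPM per kb), Mrpl47 (2.61), Mrps22 (2.76) and Mrpl13 (3.34), and the highest were Mrpl2 (42.7), Mrpl36 (37.5), Mrpl28 (36.5) and Mrpl27 (35.6). Exon length here is the union of all annotated exons, so a gene with long rarely used exons is set low by it. The spread of a gene between libraries of a group had a median SD of 0.27 on the log2 CPM scale, from 0.12 for Mrps2 to 0.44 for Mrps21, against 0.38 for all genes tested.

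The genes moved together from library to library. Their mean log2 level, centred over the 22 libraries, was highest in Ctrl-LPS 1 (0.62), GW-PBS 1 (0.56), Ctrl-LPS 4 (0.46) and GW-CBD-LPS 4 (0.35), and lowest in GW-CBD-PBS 2 (−0.43) and GW-CBD-PBS 4 (−0.37). Cytosolic ribosomal protein genes had means of 1.07, 0.90, 0.82 and 0.68 in the same 4 high libraries, and nuclear genes of the respiratory chain had means of 0.69, 0.72, 0.54 and 0.64. All 3 gene sets thus stood high in the same libraries, which come from 3 groups. These 4 libraries also had the lowest TMM factors, 0.878, 0.889, 0.892 and 0.960 in the order given, against at least 0.9749 elsewhere. A lower factor gives a higher scaled level of every gene. Before this scaling, the mitochondrial ribosomal protein genes held 0.329%, 0.317%, 0.298% and 0.300% of counts there, against at most 0.2732% elsewhere. GW-PBS 1 was the highest library of its group for 77 of 77 genes, GW-CBD-LPS 4 for 72, and Ctrl-LPS 2 was the lowest of its group for 70. Of the 4 high libraries, Ctrl-LPS 1 and GW-PBS 1 are also among the 3 with raised neutrophil markers, while Ctrl-LPS 4 and GW-CBD-LPS 4 had neutrophil sums of 76.5 and 7.99 CPM. The part of neutrophils in these levels was not tested, and neither was that of the TMM scaling.

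**Figure D1:**
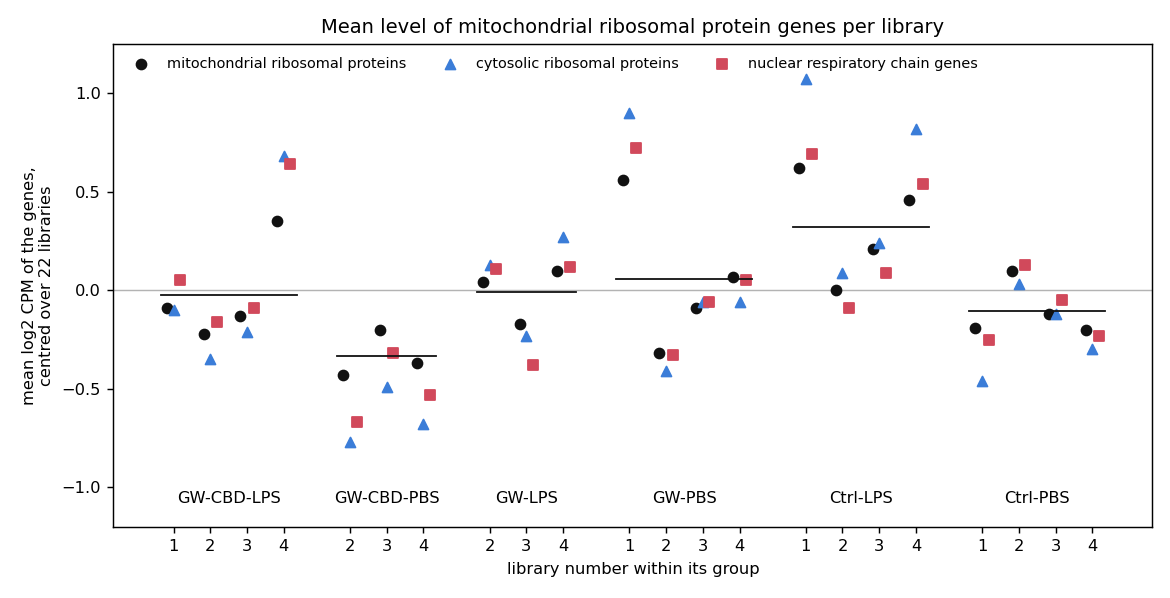
Mean log2 CPM of the mitochondrial ribosomal protein genes (black circles), the cytosolic ribosomal protein genes (blue triangles) and the nuclear respiratory chain genes (red squares) in each of 22 libraries, each gene centred on its mean over all libraries. Black lines are group means of the mitochondrial ribosomal protein genes, and the 3 sets stand high together in Ctrl-LPS 1, GW-PBS 1, Ctrl-LPS 4 and GW-CBD-LPS 4.

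Between groups, the mean of the library means was −0.02 ± 0.25 in GW-CBD-LPS (SD, n = 4), −0.33 ± 0.12 in GW-CBD-PBS (n = 3), −0.01 ± 0.14 in GW-LPS (n = 3), 0.06 ± 0.37 in GW-PBS (n = 4), 0.32 ± 0.27 in Ctrl-LPS (n = 4) and −0.10 ± 0.14 in Ctrl-PBS (n = 4). Ctrl-LPS had the highest group mean for 65 of 77 genes, GW-PBS for 10 and GW-CBD-LPS for 2. GW-CBD-PBS had the lowest group mean for 69 genes. Ordered by these means, the range of each group overlapped or met that of the next.

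**Figure D2:**
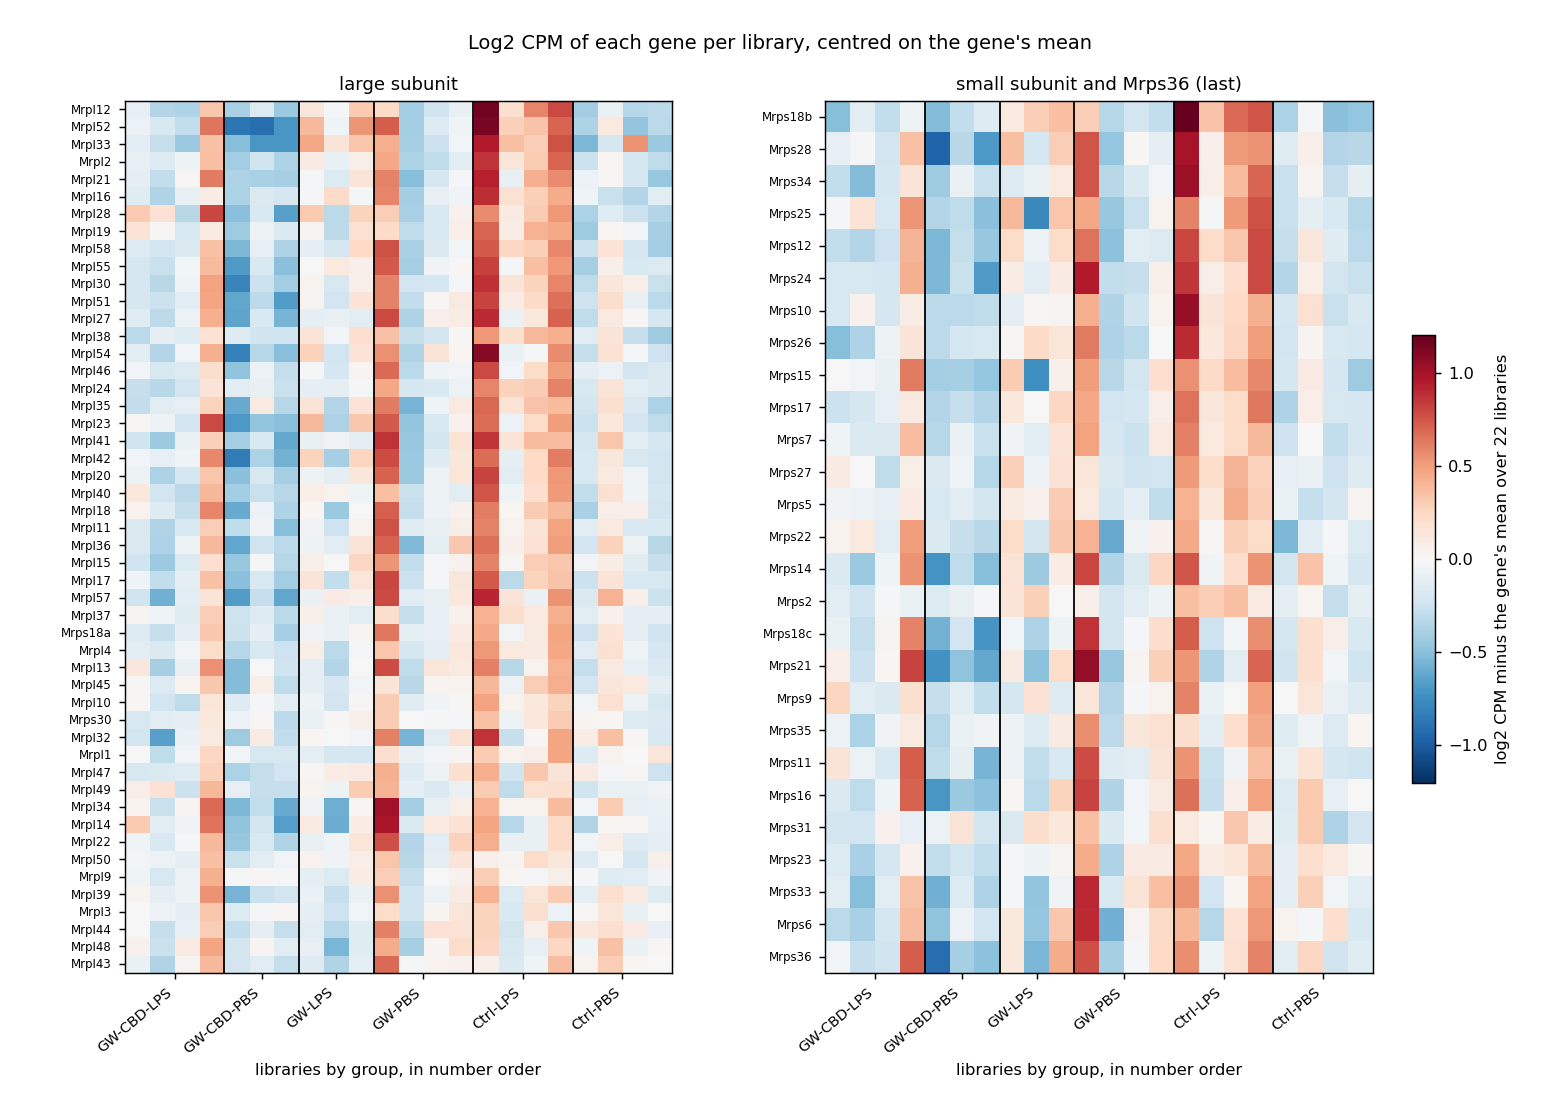
Log2 CPM of each of 77 genes (rows, ordered by the fold change of LPS in control mice) in each of 22 libraries (columns, by group and number), centred on the gene's mean. Red columns at Ctrl-LPS 1, GW-PBS 1, Ctrl-LPS 4 and GW-CBD-LPS 4 and blue columns in GW-CBD-PBS run through both subunits.

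LPS in control mice raised part of the mitochondrial ribosomal protein genes. Ctrl-LPS against Ctrl-PBS gave 28 of 77 genes higher and 0 lower (edgeR quasi-likelihood test, Benjamini-Hochberg adjusted p under 0.05 over 16554 genes), where 10.8% of all genes tested were called higher. The median log2 fold change of the 77 genes was 0.43, with 75 above 0, against a median of −0.02 over all genes. The 28 genes comprise 14 of 50 large-subunit and 14 of 26 small-subunit genes, and 19 of 48 genes with bacterial relatives against 9 of 29 specific to mitochondria. Whether these shares differ was not tested. Marker levels of cell types also differed between the same libraries: the 7 microglial markers summed to 19714 to 28957 CPM in Ctrl-LPS, against 32251 to 42880 CPM in Ctrl-PBS, and 4 endothelial markers to 11.7 to 21.8 CPM in Ctrl-LPS, against 32.6 to 43.3 CPM in Ctrl-PBS. Neither pair of ranges overlaps, no marker of either list was at 0 in all libraries, and the part of these shifts in the result was not tested.

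The largest response was that of Mrps18b, a small-subunit protein of a family of 3 related genes. Mrps18b had 53.5, 26.5, 33.5 and 35.4 CPM in Ctrl-LPS 1 to 4, against 16.1, 20.8, 14.8 and 15.2 CPM in Ctrl-PBS 1 to 4. Every Ctrl-LPS library lay above every Ctrl-PBS library, and the log2 fold change was 1.15 ± 0.19 (SE, edgeR adjusted p = 0.000229). Its relatives were not called, with 0.37 ± 0.17 for Mrps18a (adjusted p = 0.129), which sits in the large subunit, and 0.32 ± 0.24 for Mrps18c (adjusted p = 0.376).

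Mrpl12 is the protein of the flexible stalk to which translation factors bind, and it is also known to bind the mitochondrial RNA polymerase. Mrpl12 had 64.1, 32.7, 43.1 and 49.5 CPM in Ctrl-LPS, against 21.5, 27.1, 22.6 and 23.0 CPM in Ctrl-PBS. The groups did not overlap, and the log2 fold change was 1.01 ± 0.19 (edgeR adjusted p = 0.000742). Mrpl10 and Mrpl11, which form the base of the same stalk, were not called, at 0.26 ± 0.13 (adjusted p = 0.163) and 0.43 ± 0.19 (adjusted p = 0.118).

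Proteins of the decoding subunit made up much of the rest. Mrps27, a mitochondrion-specific protein with pentatricopeptide repeats, had 35, 28.4, 32.5 and 29.8 CPM in Ctrl-LPS, against 22.9, 23.2, 20.7 and 22.1 CPM in Ctrl-PBS, a log2 fold change of 0.50 ± 0.12 (edgeR adjusted p = 0.00675). Mrps5, a relative of a bacterial protein at the messenger RNA entrance, had 32.4, 26.4, 33.1 and 29.7 CPM in Ctrl-LPS, against 23.0, 19.9, 20.8 and 24.8 CPM in Ctrl-PBS, a log2 fold change of 0.46 ± 0.11 (adjusted p = 0.00714). Mrps2, the least variable of the genes, had 60.9, 58.3, 60.9 and 51.3 CPM in Ctrl-LPS, against 44.2, 48.3, 39.0 and 44.1 CPM in Ctrl-PBS, a log2 fold change of 0.40 ± 0.10 (adjusted p = 0.00854). None of these 3 genes had overlapping groups, and their fold changes were small beside those of Mrps18b and Mrpl12. Mrps17, an RNA-binding protein of the small subunit, had 80.9, 56.7, 59.9 and 79.9 CPM in Ctrl-LPS, against 39.8, 54.3, 45.1 and 44.9 CPM in Ctrl-PBS, a log2 fold change of 0.59 ± 0.15 (adjusted p = 0.00958). Among the decoding subunit's other proteins Mrps12, at the decoding centre, rose by 0.70 ± 0.22 (adjusted p = 0.0257), Mrps7 by 0.53 ± 0.16 (adjusted p = 0.0238), Mrps15 by 0.61 ± 0.21 (adjusted p = 0.0441) and Mrps34 by 0.74 ± 0.22 (adjusted p = 0.0214). Mrps22 was not called (0.45 ± 0.19, adjusted p = 0.102), although its Ctrl-LPS libraries at 10.9 to 14.8 CPM lay above its Ctrl-PBS libraries at 7.43 to 10.6 CPM.

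In the large subunit Mrpl2, which lies next to the peptidyl transferase centre, had 88.4, 53.7, 59.8 and 78.7 CPM in Ctrl-LPS, against 40.5, 49.3, 42.0 and 39.4 CPM in Ctrl-PBS, a log2 fold change of 0.71 ± 0.18 (edgeR adjusted p = 0.00708). Mrpl19, a bacterial-type protein of the face that joins the small subunit, had 30.9, 20.3, 25.5 and 26.2 CPM in Ctrl-LPS, against 14.2, 19.4, 18.6 and 14.5 CPM in Ctrl-PBS, a log2 fold change of 0.63 ± 0.16 (adjusted p = 0.00866). Both genes kept their groups apart. Mrpl52, specific to mitochondria, rose by 0.90 ± 0.25 (adjusted p = 0.0133), the third largest log2 fold change. Mrpl58, a peptidyl-tRNA hydrolase built into the large subunit, rose by 0.63 ± 0.21 (adjusted p = 0.0401), and Mrpl46 of the central protuberance by 0.54 ± 0.19 (adjusted p = 0.0439). Its partner Mrpl40 was not called (0.47 ± 0.18, adjusted p = 0.0734).

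The other genes listed for their roles were not called. Mrpl3, a core protein of the subunit, had a log2 fold change of 0.04 ± 0.13 (edgeR adjusted p = 0.857) and Mrpl44 of 0.04 ± 0.16 (adjusted p = 0.887), while Mrpl4, which lines the tunnel, had 0.35 ± 0.14 (adjusted p = 0.0799) and Mrpl45, which ties the ribosome to the inner membrane, had 0.29 ± 0.15 (adjusted p = 0.185). Mrps30 and Mrpl57, mitochondrion-specific proteins of the large subunit, had 0.26 ± 0.12 (adjusted p = 0.136) and 0.40 ± 0.22 (adjusted p = 0.227), and Mrps36 had 0.39 ± 0.26 (adjusted p = 0.318). The remaining called genes were Mrpl16, Mrpl21, Mrpl24, Mrpl28, Mrpl33, Mrpl37, Mrpl38, Mrpl55, Mrps10, Mrps24, Mrps25, Mrps26 and Mrps28, at log2 fold changes from 0.38 (Mrpl37) to 0.75 (Mrps28). Overlapping annotation limits some values: 8 of the 78 genes share exonic bases with another gene on the same strand and 28 with a gene on the opposite strand. Among the called genes, reads of Mrps24, Mrps34 and Mrpl33 are uncertain, since on the same strand Mrps24 shares 226 exonic bases with Urgcp, Mrps34 shares 763 with Nme3 and Mrpl33 shares 261 with Gm43809.

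**Figure D3:**
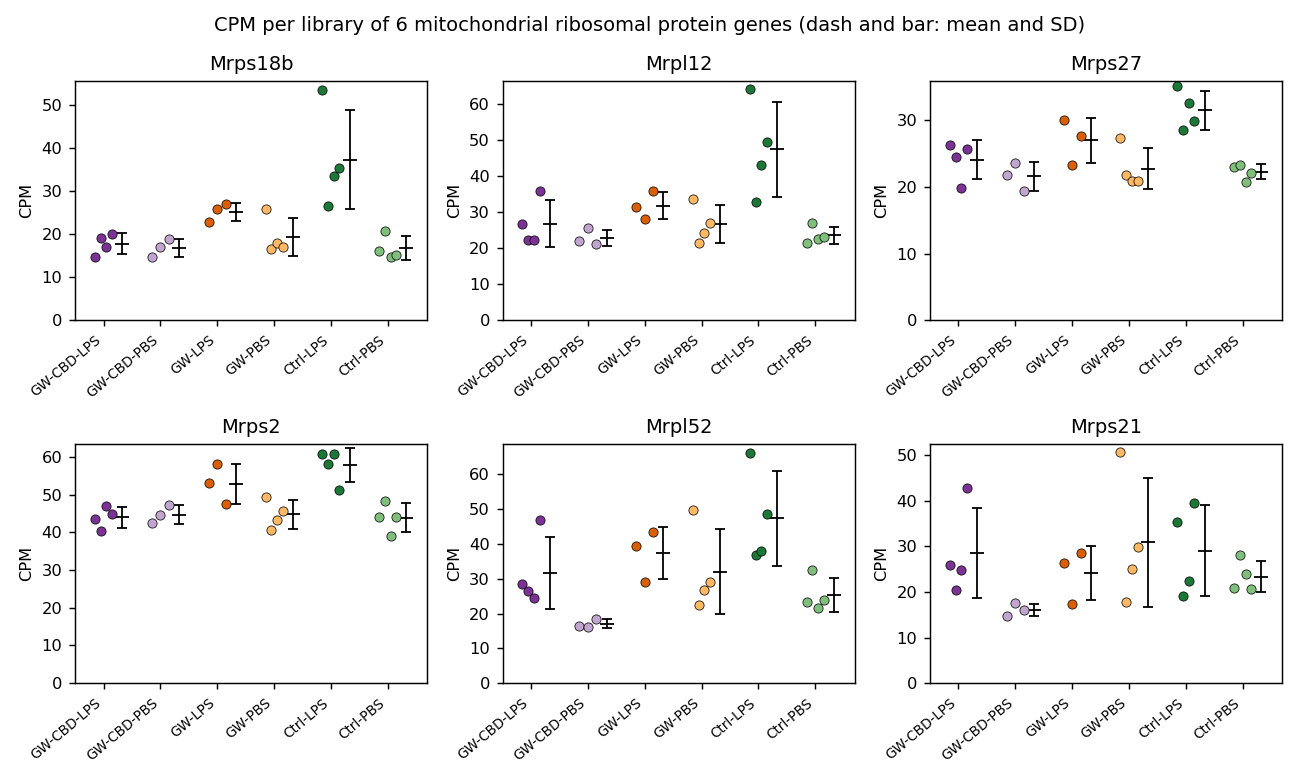
CPM per library (points) of 6 genes in the 6 groups, with the mean and SD beside the points. Mrps18b, Mrpl12, Mrps27 and Mrps2 lie higher in all Ctrl-LPS libraries than in all Ctrl-PBS libraries, and Mrpl52 and Mrps21 lie lowest in GW-CBD-PBS.

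In 25 of the 77 genes every Ctrl-LPS library lay above every Ctrl-PBS library, where this held for 12.2% of all genes tested. The count of 28 depended on single libraries. It was 10 without Ctrl-LPS 1, 12 without Ctrl-PBS 1, 12 without Ctrl-PBS 3, 13 without Ctrl-PBS 4, 13 without Ctrl-LPS 4, and 8 when the 3 libraries high in neutrophil markers were left out together, where the median log2 fold change was 0.30. The shares of all genes called in these reduced fits are not given here, so an excess over all genes in them is not known. The genes called without those 3 libraries were Mrpl2, Mrpl12, Mrpl16, Mrpl19, Mrpl24, Mrpl33, Mrps17 and Mrps18b, and all 8 belong to the 28. Mrpl2, Mrpl12, Mrpl19, Mrpl24, Mrps17 and Mrps18b were called in all 22 fits that left out 1 library and in all 7 other alternatives. DESeq2 called 29 genes and limma voom with sample quality weights 49, all higher. The shares of all genes called by these tools in this comparison are not given here, so neither count can be set against all genes.

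The promoter features were set beside the 28 calls. At least 1 of the NRF1, ETS and YY1 motifs lay in the window of 10 of 24 called genes with a window, and of 25 of 44 genes not called. A head-to-head neighbour was present at 7 of 28 called and 12 of 49 uncalled genes.

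The genes around the mitoribosome gave the following counts for LPS in control mice, to be read against the 10.8% of all genes called higher. Of the mitoribosome proteins that carry other names, Dap3 rose by 0.76 ± 0.12 (edgeR adjusted p = 0.000191) and Gadd45gip1 by 0.64 ± 0.20 (adjusted p = 0.0293), 2 of 5 measured. Of 23 genes for assembly of the mitoribosome and modification of its RNA 4 rose: the GTPases Noa1 (0.66 ± 0.12) and Mtg1 (0.57 ± 0.15) and the RNA methyltransferases Mrm3 (0.59 ± 0.15) and Nsun4 (0.52 ± 0.13). Of 15 translation factors 2 rose, the elongation factor Tufm (0.49 ± 0.15) and Mtfmt (0.66 ± 0.15), which formylates the initiator tRNA. Of 17 mitochondrial aminoacyl-tRNA synthetases 7 rose, led by Tars2 (1.03 ± 0.14, adjusted p = 3.5e-05), Ears2, Sars2 and Rars2. Among 14 genes for mitochondrial transcription and its nuclear regulators the only one called was Myc, a transcription factor of growth genes (1.65 ± 0.22, adjusted p = 2.33e-05). Of 10 measured messages that the mitoribosome itself translates, mt-Nd6 was called (1.01 ± 0.34, adjusted p = 0.0405), with a median of 0.44 over the 10. None of these lists had a gene called lower. All of these counts include the libraries high in neutrophil markers. The shares called were 41.2% of the synthetases and 17.4% of the assembly genes. They were 13.3% of the translation factors, 7.14% of the transcription genes and regulators and 10.0% of the mitochondrial messages, which are near the share of all genes. Cytosolic ribosomal protein genes had 44 of 75 called higher with a median of 0.80, and nuclear respiratory chain genes 9 of 73 (12.3%, also near the share of all genes) with a median of 0.43.

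LPS in GW mice gave no call with edgeR. In GW-LPS against GW-PBS edgeR called 0 of 77 genes (9.53% of all genes were called in either direction). An unadjusted p under 0.05 was reached by 5 genes (24.3% of all genes), DESeq2 called 0 (14.1% of all genes) and limma voom with quality weights called 6, all higher (23.0% of all genes). The 6 were Mrpl12, Mrpl33, Mrpl52, Mrps5, Mrps18b and Mrps27. The median log2 fold change was −0.10, with 22 of 77 genes above 0, against −0.04 over all genes tested. It was 0.07 without GW-PBS 1, so its sign rests on that library, and 0.08 with voom weights. The microglial markers summed to 27166 to 30638 CPM in GW-LPS, against 32330 to 37982 CPM in GW-PBS. The endothelial markers summed to 11.8 to 19.2 CPM in GW-LPS, against 25.0 to 42.7 CPM in GW-PBS. Neither pair of ranges overlaps. Erythroid marker sums also lay lower in GW-LPS, and border macrophage marker sums higher, without overlap. The part of these shifts was not tested.

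Mrps18b had 22.7, 25.8 and 26.9 CPM in GW-LPS 2 to 4, against 25.8, 16.5, 18 and 17.1 CPM in GW-PBS 1 to 4, a log2 fold change of 0.38 ± 0.20 (edgeR adjusted p = 0.261). GW-PBS 1 lay within the range of GW-LPS, and the other 3 GW-PBS libraries lay below it. The 5 genes with the smallest p pointed both ways. Mrpl43, specific to mitochondria, had 45.5, 39.4 and 46.7 CPM in GW-LPS, against 81.2, 49.8, 52.2 and 52.5 CPM in GW-PBS, a log2 fold change of −0.43 ± 0.18 (adjusted p = 0.148) with no overlap between the groups. Every GW-LPS library lay below every GW-PBS library in 2 of 77 genes, against 1720 of 16554 genes tested. Mrpl44 had −0.40 ± 0.18 (adjusted p = 0.169) and Mrps33 had −0.53 ± 0.24 (adjusted p = 0.177), whereas Mrps5 had 0.28 ± 0.12 (adjusted p = 0.166) and Mrps2 had 0.24 ± 0.11 (adjusted p = 0.182). Mrpl44 was called lower when GW-PBS 2 was left out (log2 fold change −0.54).

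Some partners of the mitoribosome were called in GW mice. Of 17 mitochondrial aminoacyl-tRNA synthetases 4 rose in GW-LPS against GW-PBS: Aars2 by 1.08 ± 0.27 (edgeR adjusted p = 0.0167), Ears2 by 0.84 ± 0.17 (adjusted p = 0.00297), Tars2 by 0.82 ± 0.15 (adjusted p = 0.00185) and Sars2 by 0.55 ± 0.14 (adjusted p = 0.0186). Noa1 rose by 0.63 ± 0.13 (adjusted p = 0.00536), the elongation factor Gfm1 by 0.56 ± 0.15 (adjusted p = 0.0191) and Myc by 0.88 ± 0.23 (adjusted p = 0.0199), while Tefm, the elongation factor of mitochondrial transcription, fell by 0.51 ± 0.14 (adjusted p = 0.0251). These are 1 of 23 assembly genes, 1 of 15 translation factors, and 1 gene in each direction of 14 for mitochondrial transcription and its regulators. Against the 9.53% of all genes called in either direction, the assembly genes (4.35%) and translation factors (6.67%) had lower shares, and the synthetases had 23.5%. The genes for mitochondrial transcription and its regulators had 14.3%. Of the mitoribosome proteins with other names 0 of 5 were called, and of the mitochondrial messages 0 of 10.

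The difference between the LPS responses of GW and control mice was tested as an interaction. Its log2 value was below 0 for 77 of 77 genes with a median of −0.59, against 0.01 over all genes tested, and edgeR called 0 genes (0.0% of all genes). Over all protein-coding genes the median was also below 0 in the shorter classes of coding length, as given below. At an unadjusted p under 0.05 there were 27 genes (12.7% of all genes), DESeq2 called 0 (0.362% of all genes) and limma voom with quality weights called 0 (0.671% of all genes). Mrpl24 had −0.64 ± 0.22 (edgeR adjusted p = 0.353), Mrps34 −0.89 ± 0.32, Mrps18b −0.77 ± 0.28, Mrpl12 −0.75 ± 0.28 and Mrpl46 −0.72 ± 0.28, all at the same adjusted p of 0.353. The difference did not pass the test for any single gene of the 77. The median was −0.39 with voom weights, −0.34 without GW-PBS 1 and −0.23 when the 3 libraries high in neutrophil markers were left out.

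LPS in CBD-treated GW mice gave values above 0 for 75 of 77 genes. In GW-CBD-LPS against GW-CBD-PBS the median log2 fold change was 0.29, against 0.00 over all genes, and edgeR called 0 genes (0.417% of all genes). An unadjusted p under 0.05 was reached by 19 genes (11% of all genes), DESeq2 called Mrpl28 and Mrpl52, 2 genes (2.12% of all genes), and limma voom with quality weights called 30, all higher (22.8% of all genes). Every GW-CBD-LPS library lay above every GW-CBD-PBS library in 25 genes, where this held for 8.37% of all genes. Microglial and endothelial marker sums overlapped between these groups. Markers of proliferation summed to 131 to 358 CPM in GW-CBD-LPS, against 73.8 to 88.4 CPM in GW-CBD-PBS, without overlap. Neutrophil, lymphocyte and astrocyte marker sums lay lower in GW-CBD-LPS, also without overlap. The part of these shifts was not tested.

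Mrpl28, a bacterial-type protein of the large subunit, had 60.5, 54.7, 38.6 and 84.9 CPM in GW-CBD-LPS 1 to 4, against 34.3, 42.9 and 31.0 CPM in GW-CBD-PBS 2 to 4, a log2 fold change of 0.72 ± 0.22 (edgeR adjusted p = 0.189). Library GW-CBD-LPS 3 lay among the GW-CBD-PBS values, and without it edgeR called Mrpl28 (log2 fold change 0.89). Mrpl52 had 28.6, 26.5, 24.5 and 47.0 CPM in GW-CBD-LPS, against 16.5, 16.1 and 18.5 CPM in GW-CBD-PBS, with no overlap and a log2 fold change of 0.89 ± 0.27 (adjusted p = 0.189). Mrps21, the most variable of the genes, had 25.9, 20.5, 24.8 and 42.8 CPM in GW-CBD-LPS, against 14.8, 17.5 and 16.0 CPM in GW-CBD-PBS, a log2 fold change of 0.82 ± 0.31 (adjusted p = 0.317). GW-CBD-LPS 4 was the highest library in each of these 3 genes. Mrpl42 and Mrpl23 had 0.71 ± 0.26 (adjusted p = 0.293) and 0.74 ± 0.27 (adjusted p = 0.300). The median of the 77 genes was 0.15 without GW-CBD-LPS 4. Mrps18b and Mrpl12, the genes that responded most in control mice, had 0.08 ± 0.21 and 0.23 ± 0.20 here.

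GW exposure without LPS left no called difference. In GW-PBS against Ctrl-PBS edgeR called 0 of 77 genes (0.0% of all genes), an unadjusted p under 0.05 was reached by 0 genes (3.75% of all genes), and DESeq2 and limma voom with quality weights each called 0 (0.0% of all genes with either tool). The median log2 fold change was 0.21 with 74 genes above 0, 0.12 with voom weights and −0.01 without GW-PBS 1. Mrpl14, which forms a bridge between the subunits, had 33.7, 15.1, 18.5 and 19.3 CPM in GW-PBS, against 13.3, 17.4, 17.3 and 16.0 CPM in Ctrl-PBS, a log2 fold change of 0.43 ± 0.24 (edgeR adjusted p = 1.0). GW-PBS 2 lay within the Ctrl-PBS values and the other 3 GW-PBS libraries above them. The other genes with the smallest p were Mrps33 (0.35 ± 0.22), Mrps24 (0.38 ± 0.24), Mrps35 (0.25 ± 0.16) and Mrps18a (0.26 ± 0.17).

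With LPS, all 77 values for GW exposure were below 0. In GW-LPS against Ctrl-LPS the median log2 fold change was −0.35, against −0.01 over all genes tested, and edgeR called 0 genes (0.0% of all genes). An unadjusted p under 0.05 was reached by 19 genes (13.7% of all genes), DESeq2 called 0 (0.906% of all genes) and limma voom with quality weights called 1, Mrpl24, lower (1.96% of all genes). Every GW-LPS library lay below every Ctrl-LPS library in 15 genes, where this held for 6.25% of all genes. Mrpl24, an RNA-binding protein of the large subunit, had 39.3, 39.3 and 41.8 CPM in GW-LPS, against 63.7, 51.4, 52.4 and 64.3 CPM in Ctrl-LPS, a log2 fold change of −0.53 ± 0.16 (edgeR adjusted p = 0.28) with the groups well apart. Mrpl1 had 14.5, 13.6 and 13.5 CPM in GW-LPS, against 19.3, 16.1, 16.6 and 21.8 CPM in Ctrl-LPS, a log2 fold change of −0.41 ± 0.14 (adjusted p = 0.310). Mrpl12 had −0.57 ± 0.20 (adjusted p = 0.321), Mrps18b −0.56 ± 0.21 (adjusted p = 0.323) and Mrps10 −0.53 ± 0.20 (adjusted p = 0.323). Both Mrps18b and Mrpl12 had 1 GW-LPS library above the lowest Ctrl-LPS library, Ctrl-LPS 2. The median was −0.24 without Ctrl-LPS 1.

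CBD-treated GW mice given PBS had the lowest group mean for most of the genes. In GW-CBD-PBS against GW-PBS no log2 fold change was above 0, the median was −0.40 against −0.03 over all genes, and edgeR called 0 genes (0.0% of all genes) with a smallest adjusted p of 0.524. At an unadjusted p under 0.05 there were 36 of 77 genes (9.48% of all genes), DESeq2 called 0 (0.0% of all genes), and limma voom with quality weights called 3 lower, Mrpl14, Mrpl51 and Mrps33 (1.31% of all genes). Every GW-CBD-PBS library lay below every GW-PBS library in 14 genes, where this held for 5.0% of all genes. Microglial markers summed to 38957 to 41424 CPM in GW-CBD-PBS, against 32330 to 37982 CPM in GW-PBS, without overlap. The other marker sums overlapped, and the part of this shift was not tested.

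Mrpl52 had 16.5, 16.1 and 18.5 CPM in GW-CBD-PBS, against 49.9, 22.6, 26.8 and 29.0 CPM in GW-PBS, a log2 fold change of −0.91 ± 0.27 (edgeR adjusted p = 0.524). Mrpl14 had 12.2, 14.7 and 10.8 CPM in GW-CBD-PBS, against 33.7, 15.1, 18.5 and 19.3 CPM in GW-PBS, a log2 fold change of −0.78 ± 0.26 (adjusted p = 0.524). Neither gene had overlapping groups, though GW-PBS 1 set much of the size. Mrps33 had 26.2, 34.9 and 30.4 CPM in GW-CBD-PBS, against 73.2, 34.5, 44.0 and 50.4 CPM in GW-PBS, a log2 fold change of −0.73 ± 0.24 (adjusted p = 0.524) with GW-PBS 2 inside the GW-CBD-PBS range. Mrpl51 and Mrpl57 had −0.67 ± 0.22 and −0.74 ± 0.25. The median of the 77 genes was −0.19 without GW-PBS 1.

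The size of some of these differences varied with the length of the coding sequence, in these genes and in all genes. For CBD in GW mice with PBS, the 26 genes with coding sequences of up to 499 nt had a median log2 fold change of −0.66, the 25 genes up to 755 nt −0.37 and the 26 longer ones −0.21. All protein-coding genes tested in the same length classes had medians of −0.48, −0.26 and 0.05. For GW exposure with LPS the medians over the same classes were −0.38, −0.39 and −0.30, against −0.32, −0.23 and 0.06 over all genes. For LPS in control mice they were 0.42, 0.53 and 0.36 against 0.15, 0.08 and −0.06, and for LPS in CBD-treated GW mice 0.46, 0.26 and 0.19 against 0.24, 0.08 and −0.02. Of the 28 genes called for LPS in control mice 5 were in the short, 12 in the middle and 11 in the long class. The part of message length, library preparation or RNA quality in these differences was not tested.

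**Figure D4:**
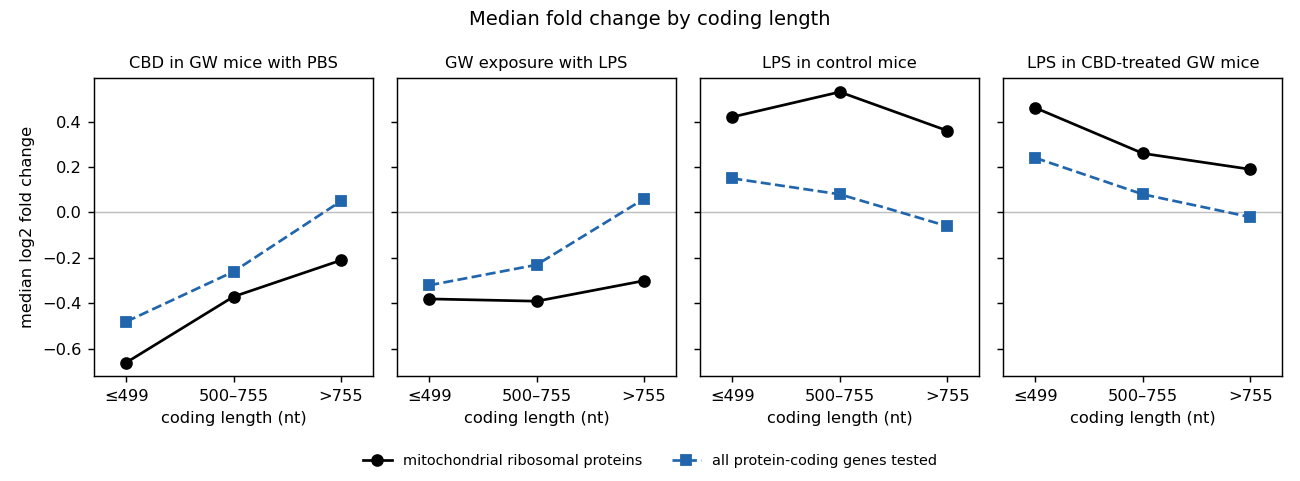
Median log2 fold change of the mitochondrial ribosomal protein genes (black) and of all protein-coding genes tested (blue, dashed) in 3 classes of coding length, for 4 comparisons. For CBD in GW mice with PBS both lines climb with length, by medians of −0.66, −0.37 and −0.21 in the mitochondrial ribosomal protein genes.

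CBD in GW mice given LPS left the median of the genes near 0. In GW-CBD-LPS against GW-LPS the median log2 fold change was 0.01, as over all genes tested, with 39 of 77 genes above 0, and edgeR called 0 genes (2.31% of all genes). An unadjusted p under 0.05 was reached by 2 genes (14.4% of all genes), DESeq2 called 0 (5.44% of all genes) and limma voom with quality weights called 12, of which 11 were lower (21.2% of all genes). The median was −0.15 without GW-CBD-LPS 4 and −0.16 with voom weights. Microglial markers summed to 31057 to 39303 CPM in GW-CBD-LPS, against 27166 to 30638 CPM in GW-LPS. Endothelial markers summed to 22.7 to 27.8 CPM against 11.8 to 19.2 CPM, and neutrophil markers to 1.59 to 12.6 CPM against 14.7 to 223 CPM. These pairs of ranges do not overlap, while the other marker sums overlapped. The part of these shifts was not tested. Mrps18b had 14.7, 19.2, 17.1 and 20.1 CPM in GW-CBD-LPS, against 22.7, 25.8 and 26.9 CPM in GW-LPS, a log2 fold change of −0.50 ± 0.20 (edgeR adjusted p = 0.230). Mrps2 had 43.5, 40.4, 47.1 and 44.9 CPM in GW-CBD-LPS, against 53.0, 58.1 and 47.6 CPM in GW-LPS, a log2 fold change of −0.27 ± 0.11 (adjusted p = 0.239). These 2 genes had no overlap between groups. Every GW-CBD-LPS library lay below every GW-LPS library in these alone, 2 of 77 genes, against 1049 of 16554 genes tested. Mrpl33 had −0.42 ± 0.25, Mrpl48 0.37 ± 0.19 and Mrps11 0.37 ± 0.24. Among the partners of the mitoribosome the synthetase Ears2 fell by 0.76 ± 0.17 (edgeR adjusted p = 0.0156) and Myc fell by 1.01 ± 0.23 (adjusted p = 0.0213). These are 1 of 17 synthetases (5.88%) and 1 of 14 genes for mitochondrial transcription and its regulators (7.14%), against 2.31% of all genes. No gene was called among 5 other-named mitoribosome proteins, 23 assembly genes, 15 translation factors and 10 mitochondrial messages.

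The difference between the LPS responses with and without CBD was tested as a second interaction. It was above 0 for 69 of 77 genes with a median of 0.41, against 0.05 over all genes, and edgeR called 0 genes (0.0181% of all genes). Over all protein-coding genes the median was also above 0 in the shorter classes of coding length, as given above. An unadjusted p under 0.05 was reached by 16 genes (15.3% of all genes), DESeq2 called 0 (2.3% of all genes) and limma voom with quality weights called 5, of which 4 were higher and 1 lower (13.8% of all genes). Mrps21 had 1.18 ± 0.44 (edgeR adjusted p = 0.239), Mrpl14 1.12 ± 0.37 (adjusted p = 0.196), Mrpl34 1.07 ± 0.38 (adjusted p = 0.217), Mrps18c 1.01 ± 0.38 (adjusted p = 0.237) and Mrpl39 0.72 ± 0.27 (adjusted p = 0.232). Mrps18b stood at −0.30 ± 0.29. The median was 0.17 with voom weights and 0.24 without GW-PBS 1. The comparisons share groups: GW-PBS and GW-LPS enter both interactions with opposite signs, and GW-PBS enters 5 of the 9 comparisons, so the medians are not independent of each other.

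**Figure D5:**
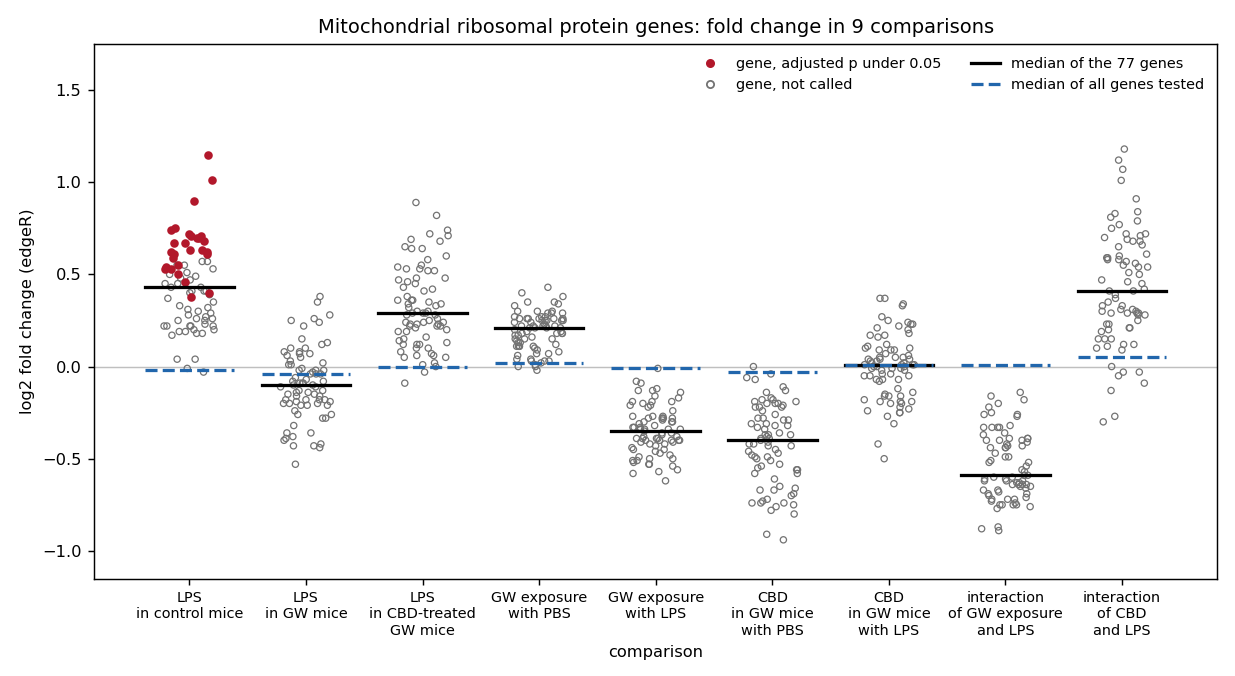
Log2 fold change (edgeR) of each of 77 genes in 9 comparisons, red where the adjusted p was under 0.05, with the median of the 77 genes (black line) and of all genes tested (blue dashed line). Called genes appear in LPS in control mice only, 28 in number, and the medians run from −0.59 to 0.43.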

How the data were processed

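Poly(A) RNA of 22 sorted microglia samples was sequenced from stranded libraries, per the labels' protocols. The authors deposited raw gene counts, aligned to GRCm38 (mm10) per the submitters' processing notes. Aligner, counter, strand setting and annotation: not given in the sources used here. Of 54532 identifiers 54409 were in GENCODE M21, and 27 symbols stored as dates were restored.

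Genes were filtered with filterByExpr (16554 kept, at least 99.93% of counts), scaled by TMM and tested in a single edgeR quasi-likelihood fit of all 6 groups, with p adjusted by Benjamini-Hochberg over all genes and a threshold of 0.05. Log2 levels used a prior count of 2. R 4.3.3, edgeR 4.0.16, limma 3.58.1, DESeq2 1.42.0, pandas 2.3.3 and matplotlib 3.10.9 were used, and the fit was tested on simulated data. The simulated spread between libraries was set lower than that of these data, so it does not show how well the fit recovers changes here. Totals of 28676930 to 40458326 counts per library set the precision.

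Groups came from the labels. Members and gene lists were chosen with earlier results of these data known. Genes named are, per comparison, the up to 8 called genes with the smallest p or otherwise the 5 with the smallest p, the 4 highest and 4 lowest per kb, genes listed for their roles, and genes below the filter; any other named gene was picked with its values in view. The alternatives used RLE factors, no filter, only the groups compared, DESeq2, limma voom with quality weights, the replicate number as a block, each library left out, and 3 libraries left out together. No 2 libraries of the same group agreed within counting noise, and libraries of different groups were not compared in this way. The 5 pseudogene rows were left out.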

Additional observations from a re-analysis of the deposited data

Results flagged for a closer look

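In the 4 groups of 4 libraries, 50 named genes and the summed level of all 77 were examined, and 19 of these 204 tests found the highest or lowest library far from the other 3 (gap over range above Dixon's critical value), where chance gives about 1 in 20 for independent tests. These tests are not independent, since the genes move together by library. In GW-CBD-LPS 4 these were Mrpl2 (62.2 CPM), Mrpl42 (89.1 CPM), Mrpl47 (13.8 CPM), Mrpl51 (56.4 CPM), Mrpl58 (29.6 CPM), Mrps12 (38 CPM), Mrps15 (89.0 CPM) and Mrps24 (42.7 CPM), all above the other libraries of the group. In GW-PBS 1 they were Mrpl24 (58.8 CPM), Mrpl43 (81.2 CPM), Mrps18b (25.8 CPM), Mrps27 (27.2 CPM) and Mrps30 (36.2 CPM). In Ctrl-PBS 2 they were Mrpl23 (55.3 CPM), Mrpl24 (47.4 CPM), Mrpl34 (20.3 CPM), Mrpl42 (65.6 CPM), Mrpl43 (62.2 CPM) and Mrps10 (35.2 CPM).

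Rows named as pseudogenes, which were left out, held counts above the limit that a count of 0 allows. Mrpl23-ps1 reached 159 counts in a library, Mrpl48-ps 50, Mrps36-ps1 13 and Mrps36-ps2 6. Whether these reads come from the parent genes was not tested.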

How the results depend on the processing

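No named value changed its sign together with its call. For LPS in control mice, where edgeR called 28 genes, limma voom called 49, leaving out the 3 libraries with raised neutrophil markers gave 8, and leaving out 1 library gave 10 to 34. The shares of all genes called in these alternatives are not given here. With the replicate block the count was 25, and the median was −0.03 for LPS in GW mice, −0.05 for CBD with LPS and 0.27 for the CBD by LPS interaction. Leaving out 1 library gave 0 to 1 genes for LPS in GW mice and 0 to 1 for LPS in CBD-treated GW mice. Limma voom called 6 genes for LPS in GW mice, 30 for LPS in CBD-treated GW mice, 1 for GW exposure with LPS, 3 for CBD with PBS, 12 for CBD with LPS and 5 for the CBD by LPS interaction, and DESeq2 called 2 for LPS in CBD-treated GW mice. The causes were not tested. Same-numbered libraries of different groups deviated together (correlation over 0.1) in 11 of 51 pairs, and differently numbered ones in 29 of 150. The median correlations were 0.014 and 0.002, so the numbers are not taken as pairs. Of the 28 calls for LPS in control mice, 9 held in all 22 fits that left out 1 library and 6 in every alternative.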
